A study of Homo sapiens with 24 samples.

Results

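The respiratory complex I subunit genes were examined in RNA-seq data from HCT116 cells, a human colorectal carcinoma line. A row of the deposited files belonged to a gene when it lay on the strand and within the GRCh37 (hg19) span of 1 of 36 nuclear NDUF genes, and this rule took 3416 of 1830076 rows. Of these rows, 1073 of 591143 were exon–intron boundary rows, and 362 boundary rows had reads at their splice site in all 24 samples. The cells carried a lentiviral transgene for either WT PHF5A or the Y36C form, with tyrosine 36 replaced by cysteine, and kept their own PHF5A gene. The methods give a blasticidin selection and name no single clone. Cells of each genotype received DMSO, the solvent, or E7107, a splicing modulator of the pladienolide family, for 6 h, which gave 4 groups of 6 samples, named here by genotype and then treatment, from WT DMSO to Y36C E7107. The E7107 dose is not in the sample labels. The Y36C change itself could not be read from these files. Poly(A) RNA was sequenced, so transcripts without a tail were not measured.

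Complex I, NADH:ubiquinone oxidoreductase, is the entry point of electrons from NADH into the mitochondrial respiratory chain, and it pumps protons across the inner membrane as electrons pass to ubiquinone. Its L-shaped structure has a matrix arm with the flavin and iron–sulphur clusters, and a membrane arm whose proton-pumping core is encoded in mitochondrial DNA. The 36 genes here are nuclear. They encode 6 catalytic core subunits of the matrix arm (NDUFS1, NDUFS3, NDUFS7, NDUFS8, NDUFV1 and NDUFV2), 9 accessory subunits placed with the matrix arm, 9 with the A, C and S names placed with the membrane arm, the 11 NDUFB subunits, and NDUFAB1, the mitochondrial acyl carrier protein. PHF5A is a small subunit of SF3b, the part of the U2 snRNP that holds the branch point adenosine before the first step of splicing, and E7107 binds SF3b.

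The measurement is the percent spliced in, PSI: of all reads that use or cross 1 splice site, the percentage on 1 junction. For an intron, the boundary PSI is the percentage of reads that run unspliced from exon into intron, and an intron's value here is the mean over its 5′ and 3′ boundaries. The annotation lists 420 introns in the 36 genes, of which 152 belong to the canonical transcript of a gene, and 225 introns, 150 of them canonical, had reads at both splice sites in all samples. NDUFB6 has no transcript tagged canonical in this annotation and is described by its 4 annotated introns. Among 1102 splice sites listed in these genes, 536 to 567 had reads in a WT DMSO sample, 482 to 521 in WT E7107, 530 to 558 in Y36C DMSO and 530 to 572 in Y36C E7107. Read depth behind a PSI is unknown, since the files hold percentages and no counts. Over the whole series a WT E7107 sample had reads at 281734 to 284117 of 638460 sites and any other sample at 329014 to 340662, and the part of this gap in the results was not tested. PSI is a share of reads, so it does not measure the amount of RNA, and a change in some cells and a smaller change in all cells cannot be told apart. Nothing in the sources says that the 6 samples of a group came from separate cultures, so p-values may measure technical spread. The epithelial markers CDH1, EPCAM, KRT8, KRT18 and KRT19 had reads at all their canonical sites in every sample, and VIL1, with 1 site listed, did not. The mesenchymal markers COL1A1 and VIM also had reads in every sample, at 85 of 96 and 16 of 17 sites. The other planned markers had no row listed: CDX1 among the epithelial ones, and PTPRC, CD3E, PECAM1 and COL1A2 among those of other cells. Differences were tested with limma after PSI was turned into log odds (natural logarithm), with all rows of the table in the fit, and an adjusted p of 0.05 or less (Benjamini–Hochberg) was taken as a call.

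The introns to which the results return are shown here by their sequence in GRCh37, 5′ to 3′ on the gene's strand, with exon bases in capitals and intron bases in lower case. The first 4 were more retained under E7107 in WT cells, NDUFV1 intron 2 differed between the genotypes without drug, and the others were more retained under E7107 in Y36C cells. For the longer introns only the last 50 bases, where the polypyrimidine tract and the 3′ splice site lie, are given with 6 bases of the next exon. Shorter introns are given whole, with 6 exon bases on each side.
NDUFS3 intron 1, chr11:47600711-47600820, + strand: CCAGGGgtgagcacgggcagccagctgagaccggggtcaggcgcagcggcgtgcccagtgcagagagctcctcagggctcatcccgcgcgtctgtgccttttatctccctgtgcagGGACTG
NDUFS3 intron 3, chr11:47602175-47602386, + strand, 3′ end: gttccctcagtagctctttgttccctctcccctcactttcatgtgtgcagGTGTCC
NDUFS3 intron 5, chr11:47603766-47603900, + strand: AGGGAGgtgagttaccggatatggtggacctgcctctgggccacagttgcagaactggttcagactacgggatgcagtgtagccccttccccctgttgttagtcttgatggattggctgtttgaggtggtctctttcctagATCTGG
NDUFB11 intron 2, chrX:47001840-47002012, − strand: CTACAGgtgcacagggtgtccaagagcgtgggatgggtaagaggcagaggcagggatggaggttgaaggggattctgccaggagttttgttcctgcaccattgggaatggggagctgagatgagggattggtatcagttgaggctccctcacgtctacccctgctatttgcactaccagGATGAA
NDUFV1 intron 1, chr11:67374548-67375866, + strand, 3′ end: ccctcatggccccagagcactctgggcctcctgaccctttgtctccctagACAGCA
NDUFV1 intron 2, chr11:67375950-67376022, + strand: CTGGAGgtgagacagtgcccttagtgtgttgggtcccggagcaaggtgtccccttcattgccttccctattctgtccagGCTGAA
NDUFS8 intron 2, chr11:67799677-67799752, + strand: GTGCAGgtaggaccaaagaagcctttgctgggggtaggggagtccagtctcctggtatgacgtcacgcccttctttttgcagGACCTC
NDUFS8 intron 3, chr11:67799804-67800389, + strand, 3′ end: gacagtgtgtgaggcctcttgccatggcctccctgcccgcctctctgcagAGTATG
NDUFS7 intron 5, chr19:1391050-1391117, + strand: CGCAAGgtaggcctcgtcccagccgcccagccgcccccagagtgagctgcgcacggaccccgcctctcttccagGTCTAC
NDUFS7 intron 7, chr19:1393330-1395389, + strand, 3′ end: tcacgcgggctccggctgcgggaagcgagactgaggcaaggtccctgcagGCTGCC

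All 10 introns shown begin with gt and end with ag. In the 27 bases that end 3 bases before the exon, pyrimidines made up 85.2% in NDUFV1 intron 2, 81.5% in NDUFS3 intron 3 and 33.3% in NDUFS7 intron 7, where the run of pyrimidines is replaced by a purine-rich stretch. The median over the 150 canonical introns of these genes was 70.4%, and it was also 70.4% over 91969 canonical introns of all protein-coding genes.

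To ask how E7107 acted on complex I transcripts in cells with WT PHF5A, WT E7107 was compared with WT DMSO. Most canonical introns of complex I stayed close to fully spliced. Their median boundary PSI was 0.869% in WT DMSO and 1.61% in WT E7107, and the median change was 0.43 percentage points. Over the 91969 canonical introns of all protein-coding genes the median change was 4.86 points. A gain of 10 points or more was seen in 6 of the 150 complex I introns, 4.00%, and in 36.2% of introns of all genes. All 6 belonged to NDUFS3. A lower PSI under E7107 was seen in 28.0% of the complex I introns and 18.3% of all introns.

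At the level of tested boundaries, 117 of 275 complex I boundaries rose in WT cells under E7107, 42.5%, where 70.8% of all 107055 boundaries tested were called higher. The complex I boundaries that fell numbered 31, 11.3%, beside 5.78% of all boundaries. The median change was 0.69 points over the complex I boundaries and 11.2 points over all boundaries tested. Over all 362 complex I boundaries with reads in every sample, the mean PSI was 7.71% ± 0.292 (SD, n = 6) in WT DMSO and 9.41% ± 0.281 in WT E7107. The rises were spread over 28 of the 36 genes and the falls over 14. By group, 27 of 79 boundaries rose and 15 fell in the catalytic core, 24 of 57 rose and 4 fell in the matrix-arm accessory genes, 34 of 66 rose and 4 fell in the membrane-arm A, C and S genes, and 29 of 65 rose and 8 fell in the NDUFB genes. For NDUFAB1, 3 of 8 rose and none fell (0 of 8, by limma; the smallest group of boundaries).

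**Figure D1:**
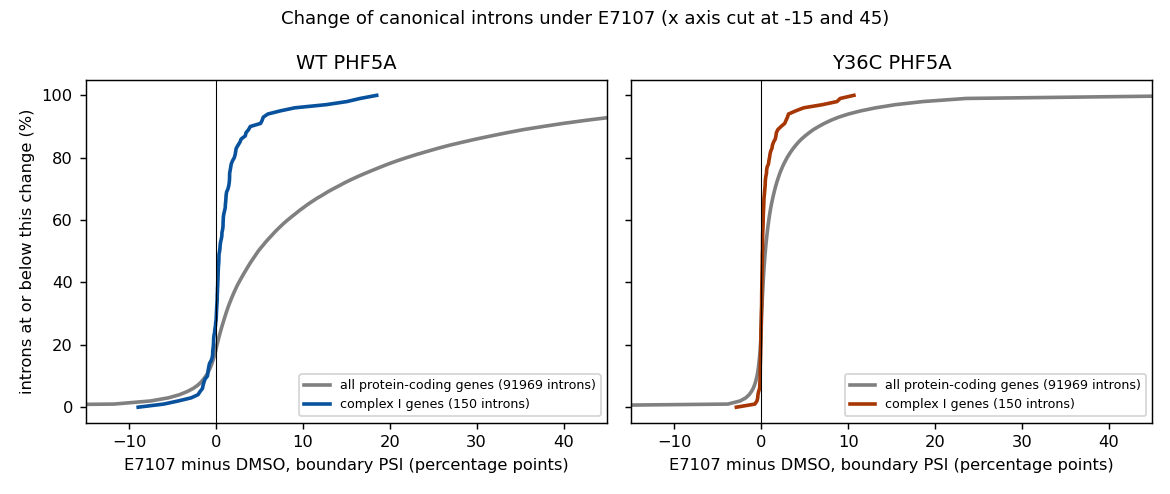
Cumulative share of canonical introns (y axis, percent) against the change in boundary PSI under E7107 (x axis, percentage points), in WT cells on the left and Y36C cells on the right. In WT cells the complex I curve lies left of the grey curve of all protein-coding genes, with medians of 0.43 and 4.86 points, and in Y36C cells the medians were 0.13 and 0.46 points.

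NDUFS3 was the exception among the 35 genes with canonical introns. NDUFS3 is a core subunit of the hydrophilic arm, needed early in assembly. The mean over its 6 canonical introns was 2.94% ± 0.463 (SD, n = 6) in WT DMSO and 18.2% ± 0.561 in WT E7107, and the gain ran from 10.1 points in intron 6 to 18.5 points in intron 1. In intron 1, of 110 bases and 67.3% GC, the lowest, median and highest samples were 2.55%, 3.25% and 4.33% in WT DMSO, and 19.8%, 22.4% and 23.3% in WT E7107. The 2 groups did not overlap. The log odds rose by 2.04 ± 0.14 (SE, adjusted p = 5.6e-08, limma) at the 5′ boundary and by 1.76 ± 0.12 (adjusted p = 7.0e-08) at the 3′ boundary. Intron 3, of 212 bases, had a lowest, median and highest value of 2.78%, 3.59% and 6.22% in WT DMSO and of 19.2%, 21.0% and 23.9% in WT E7107. Its 3′ boundary rose by 1.81 ± 0.16 on the log odds scale (adjusted p = 6.7e-07). Intron 5, of 135 bases, went from a median of 3.45% to 18.3%. Of 19 NDUFS3 boundaries tested, 14 rose and none fell.

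NDUFS3 also held the annotated intron with the largest gain of any member, a minor form of 1186 bases, chr11:47600891-47602076, that shares its 3′ site with canonical intron 2 and starts at a site a few bases downstream. Its lowest, median and highest values were 12.3%, 25.6% and 34.0% in WT DMSO and 53.7%, 57.3% and 58.7% in WT E7107. At the minor 5′ site, the unspliced share rose from a mean of 47.6% to 96.8% (log odds 3.35 ± 0.33, adjusted p = 1.8e-06). At the shared 3′ site it rose from 1.42% to 16.5%. The minor 5′ site lies inside canonical intron 2, so its unspliced reads are also unspliced reads of that intron. Its share leaves out reads spliced at the canonical 5′ site. The gain of the minor intron is therefore not separate from that of intron 2.

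Outside NDUFS3, the gene means rose by 5 points or more only in NDUFV3, NDUFB7 and NDUFB11, and 19 of 35 genes stayed within 1 point. In NDUFB11, a small membrane-arm subunit encoded on the X chromosome, the last intron of 173 bases had lowest, median and highest values of 15.8%, 17.4% and 19.0% in WT DMSO. They were 24.9%, 26.8% and 27.3% in WT E7107. The difference sat mainly at the 3′ boundary, which rose from a mean of 0.448% to 12% (log odds 2.33 ± 0.13, adjusted p = 1.1e-08), while the 5′ boundary went from 34.2% to 40.8% (0.27 ± 0.11, adjusted p = 0.045). A minor intron of 143 bases ends at the same 3′ site and starts at a 5′ site inside the 173-base intron. Reads spliced at that minor site count as unspliced at the canonical 5′ site, so the level there is not retention alone. The minor intron's own 5′ boundary rose from 1.68% to 34.9%, and its intron value ranged from 0.110% to 2.41%, with a median of 1.04%, in WT DMSO and from 20.2% to 25.3%, with a median of 24.0%, in WT E7107. NDUFB7, a subunit of the membrane arm that faces the intermembrane space, went from 1.00% ± 0.391 (SD, n = 6) to 6.42% ± 0.837 over its 2 introns, and all 4 of its boundaries rose. NDUFB10 went from 6.24% ± 0.599 to 9.92% ± 0.483, with 4 of 9 boundaries called higher.

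NDUFV3 is a small accessory subunit next to the flavin site. Its mean was 3.65% ± 1.46 in WT DMSO and 10.2% ± 3.70 in WT E7107, the widest spread among these genes, and only 1 of 5 boundaries was called higher. Intron 2 of NDUFV3 ranged from 0% to 37.7% between WT E7107 samples and passed the test at neither boundary. NDUFB3, a membrane-arm subunit, held a minor intron of 5727 bases whose lowest, median and highest values were 1.25%, 1.97% and 3.42% in WT DMSO and 20.5%, 35.0% and 39.9% in WT E7107. That gain came from a rarely used 5′ site, unspliced in 0% of reads on average in WT DMSO and 60.1% in WT E7107 (adjusted p = 2.7e-09), with no call at the 3′ site (adjusted p = 0.19). With 0% in WT DMSO, the 5′ row entered the test only through WT E7107, the group where it is high. Its p-value is therefore not independent of that filter. In NDUFS1, the 75-kDa iron–sulphur subunit, the largest gain was in a minor intron of 11506 bases, from a median of 1.55% to 8.01%, called at the 5′ boundary (adjusted p = 6.0e-05) and not at the 3′ boundary (adjusted p = 0.083). NDUFB6 had its largest difference at an intron of 1828 bases, with means of 0.770% in WT DMSO and 4.73% in WT E7107, and of 0.635% and 0.557% in the Y36C groups.

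Several introns of the core subunits moved the other way, to a smaller share of unspliced reads. NDUFV1 encodes the NADH- and flavin-binding subunit, and its intron 1 had the largest fall of any canonical intron of complex I. The lowest, median and highest values were 15.4%, 19.0% and 19.3% in WT DMSO and 7.82%, 8.69% and 11.3% in WT E7107, so the 6 treated samples lay below all 6 controls. The log odds fell by 0.75 ± 0.13 at the 5′ boundary (adjusted p = 0.00029) and by 0.73 ± 0.13 at the 3′ boundary (adjusted p = 0.00034). NDUFS8, which carries iron–sulphur clusters on the path to ubiquinone, had values of 6.79%, 8.89% and 10.2% at intron 3 in WT DMSO and of 1.92%, 2.93% and 5.36% in WT E7107, and both boundaries fell (adjusted p = 0.0024 and 0.00040). NDUFS7 holds the last cluster before ubiquinone. Its intron 7 had a lowest, median and highest value of 4.80%, 7.22% and 9.89% in WT DMSO and of 2.39%, 3.06% and 4.10% in WT E7107, and both boundaries fell (adjusted p = 0.031 and 5.1e-05). An exon of an antisense gene without a symbol lies within this intron, and since the strandedness of the libraries is not given in the sources used here, reads of the 2 strands there cannot be told apart. Of 13 NDUFS7 boundaries tested, 7 fell and 1 rose.

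NDUFA10, a membrane-arm accessory subunit related to nucleoside kinases, showed the second largest fall among canonical introns, at its intron 5 of 3042 bases. The lowest, median and highest values were 9.22%, 10.8% and 12.6% in WT DMSO and 2.98%, 4.41% and 5.13% in WT E7107. The fall was from 9.26% to 1.49% at the 3′ boundary (log odds -1.57 ± 0.20, adjusted p = 2.1e-05) and from 12.4% to 6.91% at the 5′ boundary (adjusted p = 0.0054). Of 18 NDUFA10 boundaries tested, 11 rose and 2 fell.

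Among all annotated introns, the largest losses in WT cells were at minor splice sites with a wide spread between samples. A pair of neighbouring minor introns of NDUFB1, a small membrane-arm subunit, led: one of 1206 bases with a lowest, median and highest value of 20.2%, 28.7% and 37.2% in WT DMSO and 0.676%, 7.03% and 28.8% in WT E7107, and one of 2675 bases with values of 18.4%, 27.3% and 34.1% and then 0.231%, 11.2% and 15.4%. The 1206-base intron fell at both boundaries (adjusted p = 0.020 and 7.7e-05), although its groups overlapped. The 2675-base intron fell at its 3′ boundary (adjusted p = 0.015), its groups did not overlap, and its 5′ boundary was not tested. The minor introns of NDUFA3 (317 bases, medians of 42.0% and 31.9%) and NDUFB2 (3795 bases, medians of 52.0% and 44.7%) overlapped between groups as well. The NDUFA3 intron passed the test at neither boundary, and the NDUFB2 intron fell only at the 3′ boundary (adjusted p = 0.014). Exons of NDUFB2-AS1 on the other strand overlap the NDUFB2 intron, so reads of the 2 genes there cannot be told apart. In NDUFV2, the 24-kDa core subunit, the largest difference in WT was a minor intron of 294 bases, with medians of 15.0% and 17.1% and no call at either boundary.

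**Figure D2:**
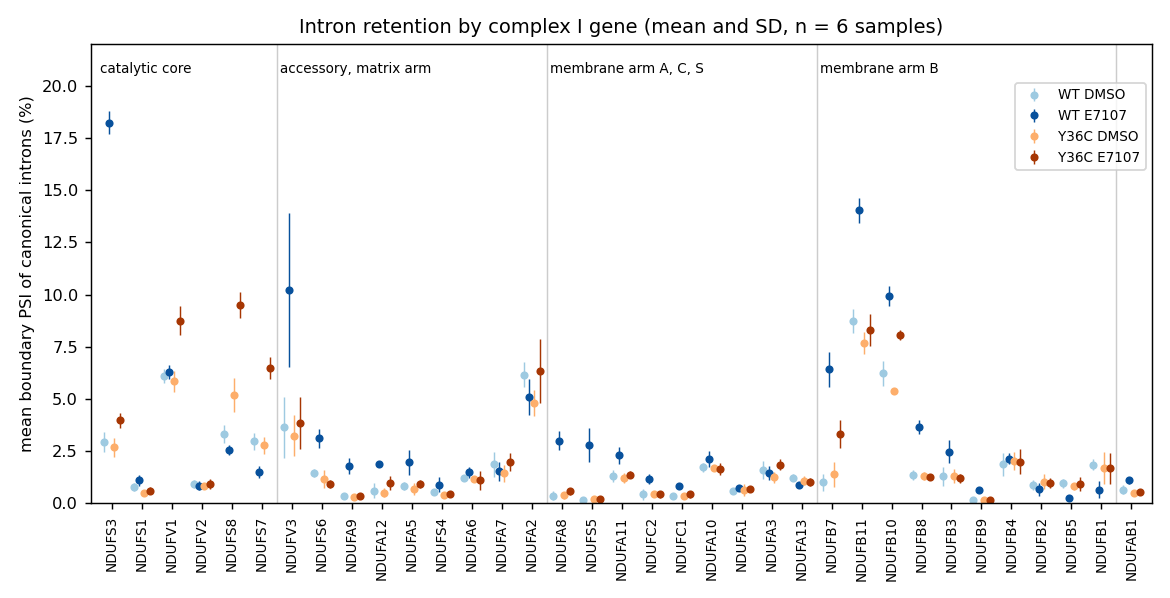
Mean boundary PSI over the canonical introns of each of 35 genes (y axis, percent) in the 4 groups; points are means and bars are SD over 6 samples, and genes are ordered by group and then by the change in WT. NDUFS3 stands at 18.2% in WT E7107, and the Y36C E7107 points of NDUFV1, NDUFS8 and NDUFS7 lie above the other groups of the same gene.

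The same comparison in Y36C cells asks what E7107 still does when PHF5A carries the change. Across the canonical introns the median boundary PSI was 0.760% in Y36C DMSO and 0.956% in Y36C E7107. The median change was 0.13 points, beside 0.46 points over the introns of all genes. Among the 232 complex I boundaries tested, 35 rose, 15.1%, and 26.8% of all 87156 boundaries tested were called higher. The boundaries that fell numbered 3, 1.29%, beside 1.26% of all. The rises lay in 9 of the 36 genes, and 22 of the 35 were in NDUFS7 (10 of 15 tested), NDUFV1 (7 of 21) and NDUFS8 (5 of 18). How calls spread over genes outside complex I was not counted. In the catalytic core 25 of 86 boundaries tested rose, 29.1%, which is near the 26.8% of all boundaries. In the matrix-arm accessory genes 2 of 34 rose, in the membrane-arm A, C and S genes 3 of 48, in the NDUFB genes 5 of 59, and in NDUFAB1 none of 5.

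NDUFS8 showed the largest gain among canonical introns. At intron 3 the lowest, median and highest values were 12.9%, 16.3% and 19.2% in Y36C DMSO and 24.4%, 27.3% and 29.5% in Y36C E7107. The groups did not overlap, and both boundaries rose (log odds 0.41 ± 0.13 and 0.82 ± 0.12, adjusted p = 0.042 and 0.00049). At intron 2, of 76 bases, the values were 3.43%, 5.31% and 7.36% and then 11.3%, 15.5% and 17.0%, with adjusted p of 0.00069 and 0.00099. These 2 introns flank exon 3, a coding exon of 51 bases. A longer minor intron of 1961 bases, which shares the 3′ site of intron 3, had medians of 38.2% and 49.0%.

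NDUFS7 intron 7 rose from 6.65%, 8.53% and 9.54% in Y36C DMSO to 12.9%, 17.7% and 20% in Y36C E7107 (lowest, median and highest sample, adjusted p = 0.0011 at the 5′ and 0.012 at the 3′ boundary). NDUFS7 intron 5, the shortest shown with 68 bases and a GC content of 73.5%, went from a median of 3.6% to 10.4% (adjusted p = 0.0012 and 0.0023). The mean over the 7 NDUFS7 introns was 2.78% ± 0.392 (SD, n = 6) in Y36C DMSO and 6.49% ± 0.523 in Y36C E7107. In NDUFV1, intron 1 had a lowest, median and highest value of 16.8%, 19.9% and 23.6% in Y36C DMSO and of 26.1%, 26.7% and 33.9% in Y36C E7107, with adjusted p of 0.040 and 0.010. NDUFV1 intron 5 went from a median of 12.1% to 20.5% (adjusted p = 0.0019 and 0.033).

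NDUFS3 did not follow this pattern: its canonical mean was 2.68% ± 0.465 in Y36C DMSO and 3.98% ± 0.356 in Y36C E7107. In intron 1 the values were 1.34%, 2.91% and 4.24% and then 4.22%, 5.66% and 7.17%, and the rise passed the test at the 3′ boundary (adjusted p = 0.021) and not at the 5′ boundary (adjusted p = 0.051). The largest gain of any annotated intron within the NDUFS3 span was at an intron of 109 bases, chr11:47587349-47587457, with values of 27.2%, 29.0% and 33.1% in Y36C DMSO and 47.1%, 48.8% and 52.9% in Y36C E7107 (adjusted p = 0.00022 and 0.00028). Exons of PTPMT1, a mitochondrial phosphatase gene on the same strand, overlap this intron, so its reads cannot be assigned to NDUFS3 alone. In WT cells its medians were 30% and 32.7%, with no call. The minor NDUFV2 intron of 294 bases had medians of 14.9% and 32.4% in Y36C cells with overlapping groups and no call (adjusted p = 0.90 and 0.071). NDUFB1's minor intron of 1206 bases had medians of 18.9% and 27.4%, also with no call (adjusted p = 0.055 and 0.57).

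Of the accessory genes, NDUFB10 intron 3 had a lowest, median and highest value of 12.3%, 13.1% and 13.9% in Y36C DMSO and 17.1%, 17.95% and 19.0% in Y36C E7107, and rose at the 3′ boundary (adjusted p = 0.013). NDUFB7 intron 1 rose in both genotypes: its medians were 1.69% and 7.04% in WT, and 1.83% and 6.02% in Y36C, with adjusted p of 0.028 and 0.0056 in Y36C. NDUFA10 intron 5 fell again at its 3′ boundary, from 9.32% to 5.58% (adjusted p = 0.041). Over genes, 28 of 35 had a mean change within 1 point in Y36C cells, and none had a mean change of 5 points or more (0 of 35, a description without a test).

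**Figure D3:**
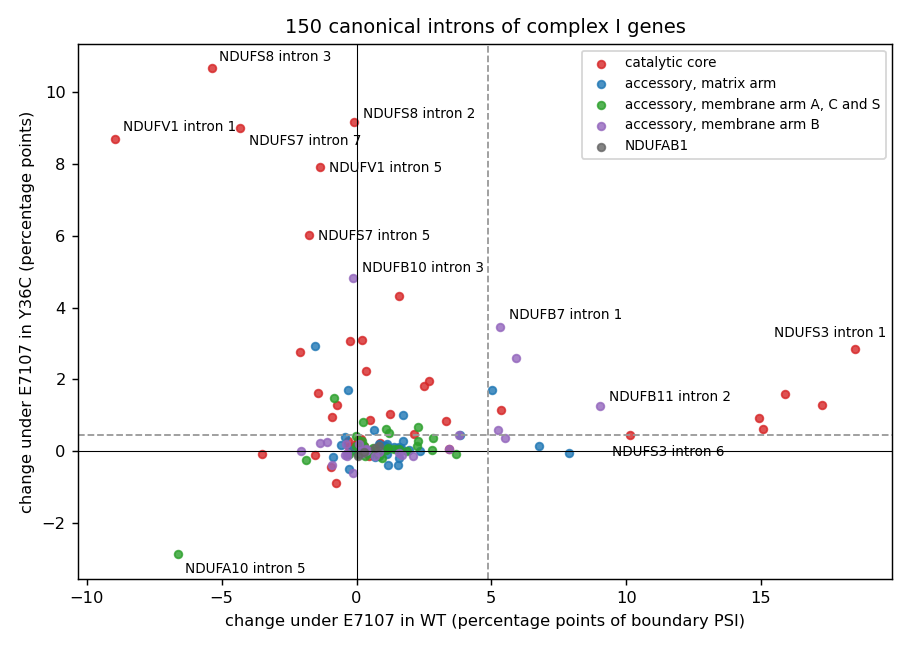
Change in boundary PSI under E7107 in WT (x axis, percentage points) against Y36C (y axis, percentage points) for the 150 canonical introns, coloured by gene group; dashed lines mark the medians over the introns of all protein-coding genes, 4.86 and 0.46 points. NDUFV1 intron 1, NDUFS8 intron 3 and NDUFS7 intron 7 lie in the upper left, lower in WT and higher in Y36C, and the 6 NDUFS3 introns lie at the far right near 0 on the y axis.

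Whether E7107 acted differently in the genotypes was tested as the interaction of genotype and E7107 over all 24 samples, where a positive value means a larger increase in Y36C. Of 286 complex I boundaries tested, 84 were lower, 29.4%, and 54.9% of all 115156 boundaries tested were called lower. Those called higher numbered 43, 15.0%, beside 8.94% of all. In the catalytic core 26 of 86 were higher and 18 lower. In the matrix-arm accessory genes 5 of 56 were higher and 17 lower, in the membrane-arm A, C and S genes 5 of 69 and 25, and in the NDUFB genes 7 of 67 and 22. Of the 150 canonical introns, 28 had a lower mean in WT and a higher mean in Y36C under E7107, 18.7%, beside 13.3% of the canonical introns of all genes. The same number, 28, went the other way, beside 20.1% of all, while 80 were higher in both genotypes and 14 lower in both, beside 58.9% and 4.70% of all. Calls for both a fall in WT and a rise in Y36C, each at either boundary, were made at 8 introns, 5.33%, beside 1.25% of all. The interaction compares the same changes that picked these 8 introns, so its values there are not separate support. NDUFV1 intron 1 was among these 8, with an interaction of 1.20 ± 0.15 (adjusted p = 6.5e-07, 3′ boundary), as were NDUFS8 intron 3 (1.72 ± 0.19, adjusted p = 7.6e-08, 3′ boundary) and NDUFS7 intron 7 (1.55 ± 0.20, adjusted p = 7.4e-07, 3′ boundary). NDUFS3 intron 1 had an interaction of -1.56 ± 0.20 at its 5′ boundary (adjusted p = 6.6e-07). For NDUFB7 intron 1, which rose in both genotypes, the interaction was not called (adjusted p = 0.10 and 0.44).

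The direct comparison of Y36C E7107 with WT E7107 shares samples with the comparisons above. It gave 107 of 277 complex I boundaries lower in Y36C, 38.6%, beside 62.9% of all boundaries, and 45 higher, 16.2%, beside 11.7% of all. The catalytic core held 28 of the higher boundaries and 21 of the lower ones. The called rises of largest size were at NDUFS8 intron 3, from a median of 2.93% in WT E7107 to 27.3% in Y36C E7107 (log odds 2.29 ± 0.16, adjusted p = 1.2e-07, 3′ boundary), NDUFV1 intron 1, from 8.69% to 26.7% (1.40 ± 0.14, adjusted p = 1.9e-06, 5′ boundary), and the NDUFB1 minor intron of 2675 bases, from 11.2% to 29.6% (1.99 ± 0.56, adjusted p = 0.0088, 3′ boundary). In all 3 introns the ranges of the 2 groups did not overlap. At NDUFS8 intron 3 the genotypes were also apart without drug, with medians of 8.89% in WT DMSO and 16.3% in Y36C DMSO. That difference without drug passed the test at neither boundary, as given below. Its part in the difference under E7107 was not tested.

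**Figure D4:**
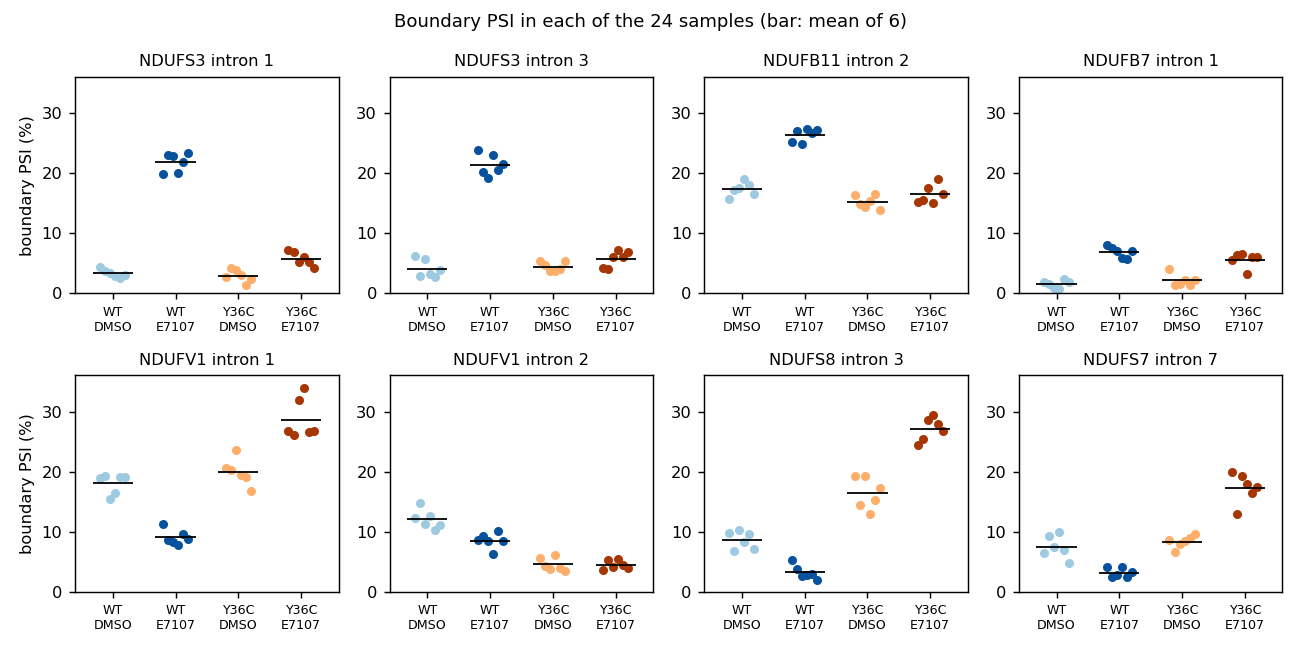
Boundary PSI (y axis, percent) of 8 canonical introns in each of the 24 samples, with a bar at the mean of 6. NDUFS3 introns 1 and 3 are highest in WT E7107, with lowest samples there of 19.8% and 19.2%, whereas NDUFV1 intron 1, NDUFS8 intron 3 and NDUFS7 intron 7 are lowest in WT E7107 and highest in Y36C E7107.

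Without drug the difference between the genotypes passed the test at 1 complex I intron. In Y36C DMSO against WT DMSO, 2 of 222 boundaries were called, 0.901%, beside 0.166% of all 80963 boundaries in either direction. Both were the ends of NDUFV1 intron 2, of 73 bases between coding exons 2 and 3. Its lowest, median and highest values were 10.3%, 11.7% and 14.8% in WT DMSO and 3.48%, 4.08% and 6.08% in Y36C DMSO, and the groups did not overlap. The log odds were lower in Y36C by -0.91 ± 0.14 at the 5′ boundary (adjusted p = 0.036) and by -0.99 ± 0.14 at the 3′ boundary (adjusted p = 0.022). With the replicate number as a block in the fit, neither was called (adjusted p = 0.36 and 0.26), and with an offset of 0.1 points the adjusted p were 0.10 and 0.073. The spliced junction of the same intron was correspondingly higher in Y36C at both of its ends (adjusted p = 0.036 and 0.025). Under E7107 the values were 6.27%, 8.55% and 10.1% in WT and 3.56%, 4.26% and 5.44% in Y36C. The fall in WT was called at both ends (adjusted p = 0.027 and 0.036), in Y36C neither end was called (adjusted p = 0.88 and 0.93), and the interaction was not called (adjusted p = 0.12 and 0.099). No boundary was called higher in Y36C DMSO (0 of 222 by limma), and 6 were higher and 11 lower at an unadjusted p under 0.05. By the intron value, the DMSO groups did not overlap at 4 of the 150 canonical introns. Y36C was higher at 1 of them, 0.667%, beside 0.425% of the canonical introns of all genes, and lower at 3, 2.00%, beside 0.351%. The higher one was NDUFS8 intron 3, with 6.79% to 10.2% in WT DMSO and 12.9% to 19.2% in Y36C DMSO, and it passed the test at neither boundary (adjusted p = 0.12 and 0.14). The lower ones were NDUFV1 intron 2, NDUFB10 intron 3 and NDUFS7 intron 2, the last 2 without a call. The mean over the NDUFS8 introns was 3.32% ± 0.433 (SD, n = 6) in WT DMSO and 5.19% ± 0.818 in Y36C DMSO. The medians of NDUFS8 intron 2 were 3.03% and 5.31%, and those of NDUFV1 intron 5 were 8.34% and 12.1%, with no call.

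Exon skipping was read from spliced junctions that span at least 1 whole annotated exon of the gene. In WT cells under E7107, 24 of 101 such junctions rose, 23.8%, beside 18.4% of all 33188, and 25 fell, 24.8%, beside 32.6% of all. In Y36C cells 21 of 112 rose, 18.8%, beside 24.2% of all 39832, and 12 fell, 10.7%, beside 12.5%. This count includes junctions of the canonical transcript, and junctions to or from minor exons, that pass over exons of minor transcripts only. When only junctions that leave out an exon of the canonical transcript were kept, 7 of 30 rose and 7 fell in WT, 23.3% each, beside 34.5% and 15.9% of all 11597. In Y36C, 15 of 38 rose, 39.5%, and 1 fell, 2.63%, beside 54.0% and 1.88% of all 15014. In the interaction, 30 of 123 junctions were higher and 18 lower (all junctions: 34.5% and 13.8%), and of the canonical ones 15 of 43 were higher and 3 lower (all: 38.2% and 16.7%). In Y36C E7107 against WT E7107, 39 of 109 were higher and 21 lower (all: 43.7% and 17.5%), and of the canonical ones 16 of 38 were higher and 4 lower (all: 47.8% and 19.8%). Between the DMSO groups none of 101 junctions was called by limma (all: 0.185%), nor any of the 28 canonical ones (all: 0.286%), and at an unadjusted p under 0.05 there were 8 higher and 10 lower among the 101.

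The largest rise in WT cells was the skipping of NDUFV3 exon 3. This exon, chr21:44323292-44324386, has 1095 bases, all coding and a multiple of 3, and is known as the alternative exon that separates the long from the short NDUFV3 protein. At the 5′ splice site of exon 2 the skipping junction made up 35.3%, 44.7% and 53.8% of reads in WT DMSO (lowest, median and highest sample) and 79.2%, 86.3% and 89.1% in WT E7107. The log odds rose by 1.91 ± 0.18 (adjusted p = 1.2e-06). The junction into exon 3 from the same site went from a mean of 49.7% ± 6.67 (SD, n = 6) to 12.1% ± 6.55. In Y36C cells the skipping values were 44.7%, 48.5% and 55.6% without and 42.5%, 43.0% and 53.4% with drug, which did not pass the test (adjusted p = 0.33), and the interaction was -2.10 ± 0.21 (adjusted p = 1.5e-08).

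NDUFC1, a small membrane-arm subunit, was next in WT. Its exon 2, chr4:140218539-140218597, is an untranslated exon of 59 bases. Skipping took 36.4%, 48.8% and 60.9% of reads at the 3′ site of exon 3 in WT DMSO and 68.8%, 88.5% and 94.1% in WT E7107 (log odds 1.92 ± 0.33, adjusted p = 0.00023). In Y36C the medians were 37.5% and 43.9% with no call (adjusted p = 0.51), and the Y36C DMSO samples spread from 20.8% to 60%. Exons of NAA15 on the other strand overlap this region. The remaining 3 of the 5 largest rises, all with wider spread, pass over exons of minor transcripts and leave out no canonical exon. Each joins a canonical exon to a minor exon. In NDUFB1, the junction of the 2675-base intron named above went from a median of 44.05% to 78.4% (adjusted p = 0.014). The NDUFB2 junctions went from 58.9% to 87.1% (adjusted p = 0.045) and from 82.7% to 95.3% (adjusted p = 0.013). The NDUFB1 junction and the first NDUFB2 junction use 3′ sites whose unspliced share fell, as given above, so these are shares of the same reads. Of these 3, each passed the interaction test (adjusted p = 0.0081, 0.039 and 0.036), with Y36C medians of 51.0% and 41.4%, 71.3% and 59.5%, and 83.5% and 68.2%.

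In Y36C cells the skipping of exons 2 and 3 of NDUFB5, a membrane-arm subunit, led. These coding exons have 89 and 67 bases. The junction from exon 1 to exon 4 made up 21.8%, 26.9% and 29.5% of reads at the 3′ site of exon 4 in Y36C DMSO and 43.8%, 44.9% and 45.2% in Y36C E7107 (log odds 0.80 ± 0.11, adjusted p = 0.00023). In WT it had medians of 24.5% and 27.5% and no call (adjusted p = 0.22), and the interaction was 0.63 ± 0.13 (adjusted p = 0.00032). Skipping of NDUFV1 exon 8, a coding exon of 82 bases, moved in opposite directions: from a median of 5.14% to 3.30% in WT (adjusted p = 0.016) and from 5.30% to 13.3% in Y36C (adjusted p = 0.00090). NDUFA8, a twin-cysteine subunit on the intermembrane-space side, did the same at its exon 2 of 164 coding bases, from 10.4% to 4.03% in WT (adjusted p = 0.00041) and from 6.21% to 15.0% in Y36C (adjusted p = 0.00097), with an interaction of 1.67 ± 0.19 (adjusted p = 1.5e-07). In NDUFS4, an accessory subunit of the matrix arm, the junction of canonical intron 2, which passes over exons of minor transcripts, rose in both genotypes. It went from 82.8% to 88.8% in WT and from 85.8% to 92.1% in Y36C (adjusted p = 0.0071 and 0.0037). This junction joins exons 2 and 3 and leaves out no exon of the canonical transcript. In NDUFB6, a membrane-arm subunit, the long junction of 17015 bases went from a median of 5.56% to 10.2% in Y36C (adjusted p = 0.010) and from 7.90% to 5.82% in WT with no call (adjusted p = 0.15).

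**Figure D5:**
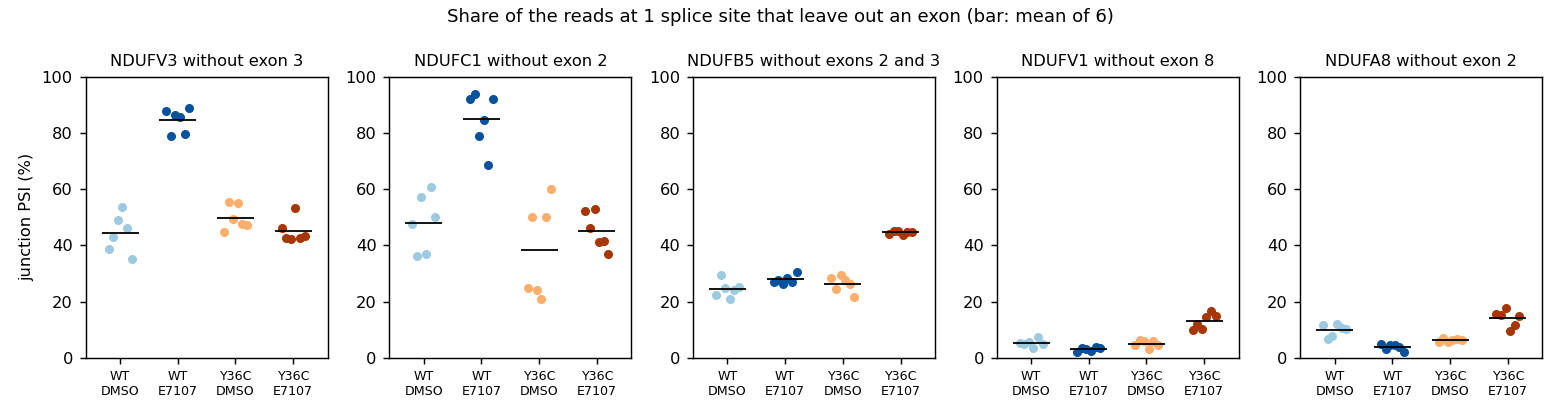
Share of the reads at 1 splice site on the junction that leaves out the named exons (y axis, percent) in each of the 24 samples, with a bar at the mean of 6. NDUFV3 exon 3 and NDUFC1 exon 2 are skipped more in WT E7107, with medians of 86.3% and 88.5%, and NDUFB5, NDUFV1 and NDUFA8 have their highest values in Y36C E7107.

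Intron length and base composition were set beside the changes as a description, since introns of 1 gene share libraries. In WT cells the Spearman correlation of the change with length over the 150 canonical introns was 0.018 and with GC content 0.076. Over the 91969 introns of all genes the WT values were -0.083 and -0.026. In Y36C cells the correlation over the 150 introns was -0.28 with length and 0.37 with GC content. Over the introns of all genes the Y36C values were -0.23 and 0.27. By class, the 22 complex I introns with 60% GC or more had a median change of 0.40 points in WT and 1.17 points in Y36C, and the 78 introns under 45% GC had 0.29 and 0.08 points. Over all genes the introns with 60% GC or more had 6.13 and 2.16 points, and those under 45% GC had 5.00 and 0.24 points. The 10 introns of 110 bases or less had medians of 0.31 points in WT and 0.61 in Y36C, where the 6911 introns of that length over all genes had 6.78 and 1.44 points. First introns, 34 in number, had a median change of 0.82 points in WT and last introns, 35 in number, 0.33 points. In WT, 62 of 137 5′ boundaries and 55 of 138 3′ boundaries rose, and 12 and 19 fell. Over all boundaries of both types, 70.8% rose and 5.78% fell. Shares by type over all genes were not counted, so a difference between the types cannot be tied to complex I. Length of the complex I introns, with a median of 1862.5 bases, was above that of all introns tested, 1380 bases, and the median GC content was 44.5% and 43.9%.

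The remaining genes of oxidative phosphorylation were counted in the same way. In WT cells, where 70.8% of all boundaries rose and 5.78% fell, rises and falls were 23 and 1 of 44 boundaries in complex II, 53 and 8 of 101 in complex III, 30 and 4 of 74 in complex IV, and 78 and 26 of 160 in ATP synthase. The median changes were 1.10, 0.84, 0.45 and 0.61 points, against 11.2 points over all boundaries. In the 16 assembly factors of complex I, 54 of 130 rose and 15 fell, with a median of 1.66 points. In Y36C cells, where 26.8% of all boundaries rose and 1.26% fell, 3 of 28 boundaries rose in complex II, 9 of 81 in complex III, 2 of 61 in complex IV, 19 of 141 in ATP synthase and 32 of 123 in the assembly factors. The falls numbered 1 in complex III, 2 in the assembly factors and 0 in the other lists. The epithelial marker genes, measured in the same libraries, had 52 of 67 boundaries higher in WT and 4 of 64 in Y36C.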

How the data were processed

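RNA-seq of poly(A) RNA was analysed in 24 samples, 4 groups of 6 by the genotype and treatment in the labels. The authors deposited 1 file per sample with PSI in percent for 1830076 junction and boundary rows. The submitters' processing notes name STAR and hg19. Strandedness, read counts and the annotation behind the rows are not given in the sources used here, so depth was judged by how many splice sites had any read, and no interval for counting error could be given. Rows at a site sum to 100, or to 0 where no read was found, which was treated as missing. There were 6433 rows of the mitochondrial genome or without strand, which were left out.

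Rows were matched to GENCODE 44 (GRCh37 coordinates). Boundary rows, whose end exceeds their start by 2, gave unspliced reads. PSI was taken as ln((PSI + 1)/(100 − PSI + 1)), with an offset of 1 percentage point, and fitted per comparison with limma 3.58.1 in R 4.3.3. A row was tested if its site had reads in every sample of the fit and at least 1 group had no sample at a PSI of 0. Rows with the same value in every sample were dropped, a step added to the planned design. Adjusted p-values (Benjamini–Hochberg) cover all rows, and a junction was called at the end with the smaller p. Estimates are differences in natural-log odds with SE. The code was tested on simulated data.

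The members and lists were chosen with earlier results of these data known, and the offset and filter were carried over from an earlier analysis that had compared settings with the study's lists, so they are not independent of these data. Counts over the canonical transcript only, and of introns by direction or by overlap of the DMSO groups, were added after seeing the data. Values per sample were given for the intron with the largest change in WT of each core gene, the 5 introns with the largest and 5 with the smallest change in WT, the 5 largest in Y36C, the 3 largest called rises of Y36C over WT under E7107, the 5 largest called skipping rises in each genotype and the largest called differences between DMSO groups. NDUFA10 intron 5, NDUFB7 intron 1, NDUFB10 intron 3, NDUFV1 intron 5, NDUFS7 intron 5, NDUFV3 intron 2, NDUFS3 intron 5, NDUFB11 intron 2, NDUFS7 intron 2 and the NDUFB6 intron were chosen after their values were seen. Sequences were read from the GRCh37 genome.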

Additional observations from a re-analysis of the deposited data

Results flagged for a closer look

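Among 108 groups of 6 samples examined, 4 held a sample far from the others (by Dixon's ratio of the gap to the range, at the 95% critical value), and chance gives about 1 in 20. The 1186-base NDUFS3 intron in Y36C DMSO had a ratio of 0.670, with a lowest, median and highest value of 0.175%, 7.02% and 30.5%. The 5727-base NDUFB3 intron in Y36C DMSO had a ratio of 0.883, with 1.29%, 2.66% and 14.5%. The 1961-base NDUFS8 intron in Y36C E7107 had a ratio of 0.666, with 38.6%, 49.0% and 51.9%. The NDUFV3 junction without exon 3 in Y36C E7107 had a ratio of 0.648, with 42.5%, 43.0% and 53.4%.

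The effect of E7107 differed between the genotypes, by limma's interaction of genotype and E7107 with Benjamini–Hochberg adjustment, in 24 of the items described. Most of these items were picked for large changes under E7107, so a called interaction is partly built in and the count is not separate support. Over all boundaries tested, 8.94% were called higher and 54.9% lower in the interaction. All values here are the effect in Y36C minus that in WT, in natural-log odds. Among introns with a smaller value in Y36C, NDUFS3 had -1.56 (adjusted p = 6.6e-07) at intron 1 and -1.71 (adjusted p = 3.4e-07) at intron 3. It had -1.72 (adjusted p = 1.6e-05) at the 3′ site that intron 2 and the 1186-base intron share. NDUFB11 had -2.11 (adjusted p = 9.3e-09) at the 3′ boundary of its 143-base intron. At 5′ boundaries, NDUFB3 had -4.46 (adjusted p = 0.00036) for its 5727-base intron and NDUFS1 -1.65 (adjusted p = 0.0024) for its 11506-base intron. The NDUFB3 row is the one whose test in WT was not independent of the filter, as given above. That limit may hold for its interaction too. Among introns with a larger value in Y36C, NDUFS7 intron 7 had 1.55 (adjusted p = 7.4e-07) and NDUFV1 intron 1 had 1.20 (adjusted p = 6.5e-07). NDUFS8 had 1.18 (adjusted p = 0.0015) at intron 2, and 1.72 (adjusted p = 7.6e-08) at the 3′ site that intron 3 and the 1961-base intron share. The 109-base intron within NDUFS3 had 0.76 (adjusted p = 2.8e-05). The minor introns of NDUFB1 had 2.87 (adjusted p = 0.0027) for 1206 bases and 2.42 (adjusted p = 0.0074) for 2675 bases, and that of NDUFB2, where exons of NDUFB2-AS1 lie on the other strand, had 2.41 (adjusted p = 0.025).

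For junctions that span a whole annotated exon the values were -2.10 in NDUFV3 (adjusted p = 1.5e-08) and -1.60 in NDUFC1 (adjusted p = 0.0053). At the junctions to or from minor exons they were -2.33 in NDUFB1 (adjusted p = 0.0081), and -1.38 and -1.89 in NDUFB2 (adjusted p = 0.039 and 0.036). At the other junctions the values were 0.63 in NDUFB5 (adjusted p = 0.00032), 1.40 in NDUFV1 (adjusted p = 3.0e-06), 1.67 in NDUFA8 (adjusted p = 1.5e-07) and 0.99 in NDUFB6 (adjusted p = 0.00042).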

How the results depend on the processing

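Requiring a change of at least 10 points left 24 higher and 5 lower boundaries in WT, 3 and 1 in Y36C, 17 and 24 between the E7107 groups and 0 lower between the DMSO groups. For skipping junctions it left 5 higher and 3 lower in WT, 1 and 1 in Y36C, and 7 and 7 between the E7107 groups. Requiring a call at both ends left 10 higher and 8 lower skipping junctions in WT, 17 and 5 in Y36C, 24 and 13 between the E7107 groups, and 15 and 9 in the interaction. Counting the canonical transcript only, chosen after seeing the data, left 7 and 7 in WT, 15 and 1 in Y36C, 16 and 4 between the E7107 groups, and 15 and 3 in the interaction. These settings count fewer rows by construction. No share over all rows is given for the 10-point and both-ends settings, so those counts do not set complex I beside other genes.

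The 3 boundaries lower in Y36C under E7107 were 1 with an offset of 0.1 points and 0 with no requirement on PSI above 0. The 2 lower between the DMSO groups were 0 with an offset of 0.1, and 1 boundary was called higher there with an offset of 5 points and 1 with PSI in percent as the response. The cause was not tested. The E7107 change of the mean boundary PSI was 0.748 points in WT and 0.261 in Y36C as a median over boundaries, and 1.31 and 0.785 over canonical introns only.

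The labels give the groups the same replicate numbers. Deviations of same-numbered samples from their group means had mean correlations between -0.0012 and 0.0023 over 837099 rows, so no pairing was seen over all rows together. A pairing that acts on part of the rows was not tested. With the replicate block, 1 boundary was lower in Y36C under E7107, 0 were lower between the DMSO groups and 13 skipping junctions were higher in Y36C. Of 209 single values described, refitted 1211 times in all, 1166 fits kept their direction and side of the threshold, 38 lost the call, 7 gained it and 0 reversed. Depth could not be read from percentages, so calls at rarely used sites, such as the 5′ sites of the NDUFB3 and NDUFS1 minor introns, rest on an unknown number of reads.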
